A study of Mus musculus with 14 samples.

Results

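The genes that lie within 5 Mb of Timp2 on mouse chromosome 11 were followed in cultured microglia of TIMP2 KO and WT mice. In GRCm38 coordinates Timp2 runs on the reverse strand of chromosome 11 from 118301069 to 118355740, so the window runs from 113301069 to 123355740. The count table listed 319 genes whose annotated span touches this window, after Timp2, Engase, Gm11748, Sept9, Rpl38 and the Cd300 genes were set aside. Of these, 178 had enough reads to be tested and are the genes described here, among 15700 tested genes in all. The other 141 genes were too low to test, 34 of them with no read in any library, and the highest had a mean of 9.07 counts per library. The choice used position and the number of reads. The genes set aside include those of the window that passed an adjusted p under 0.05, so the 178 genes are not a sample of all genes near Timp2.

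Messenger RNA was sequenced from primary microglia, brain-resident macrophages, of global TIMP2 KO mice and of WT mice, with 7 libraries per genotype. Both genotypes had the C57BL/6 strain label, and each library was a pool of 5 pups, male and female, aged P6-P7. The cells were isolated from forebrains with CD11b microbeads and kept in culture before RNA was taken. The KO animals lacked intact Timp2 in every cell, not in microglia alone, and the number of backcross generations of this line is not given in the sources used here.

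Timp2 encodes a secreted inhibitor of matrix metalloproteinases, the enzymes that cut extracellular matrix proteins. Genes that lie close together on a chromosome are inherited together, so DNA next to a targeted allele travels with that allele through crosses. The expression of a gene can also depend on DNA around it, such as enhancers, and neighbouring genes can share a promoter region. Counts of reads hold no genotype for the DNA around Timp2, and neither of these was tested.

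The libraries held between 38875344 and 48070236 counted reads. In KO libraries Timp2 lay between 119.6 and 129.2 CPM (read counts of a gene scaled by the size of the library), with a median of 121, and in WT libraries between 398 and 495, with a median of 476. On average KO libraries kept 26.4% of the WT level. The genotypes did not overlap, and the log2 fold change, KO over WT, was -1.92 ± 0.0464 (SE; edgeR quasi-likelihood test, adjusted p = 1.53e-12), so the labels and the targeted gene matched in every library. The 8 microglial markers summed to between 7652 and 9646 CPM in KO and between 7241 and 9134 CPM in WT (exact permutation, two-sided, p = 0.222). The astrocyte markers summed to between 28.8 and 131 CPM in KO, with a median of 47.7, and between 33.1 and 251 CPM in WT, with a median of 86.5. All 8 tested astrocyte markers had a lower mean in KO, but the sums overlapped and did not differ past the spread (two-sided exact permutation test, p = 0.214). The neuronal markers (p = 0.347, exact permutation test) and oligodendrocyte markers (p = 0.113, exact permutation test) did not differ past the spread either.

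None of the 178 genes passed an adjusted p under 0.05 in edgeR, against 3 of all 15700 tested genes (0.0191%), which were Timp2 and 2 of the genes set aside, Engase and Gm11748. The smallest adjusted p among the 178 was 0.170, for Caskin2. With DESeq2, 4 genes passed, Caskin2, Tmem94, Rnf157 and St6galnac2, with adjusted p between 0.000134 and 0.0299. In edgeR, 22 of the 178 genes (12.4%) were at an unadjusted p under 0.05, against 529 of all tested genes (3.37%). Of these 22, 10 were higher in KO, where the share over all tested genes was 1.75%, and 12 were lower, where it was 1.62%. With upper-quartile scaling in place of TMM, 29 genes passed the unadjusted threshold, 8 of them higher and the others lower, against 3.74% of all tested genes. The KO and WT libraries did not overlap for 2 of the 178 genes, Caskin2 and Fam104a, both lower in KO. Over all tested genes 13 did not overlap (0.0828%), 12 of them lower in KO (0.0764%).

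**Figure D1:**
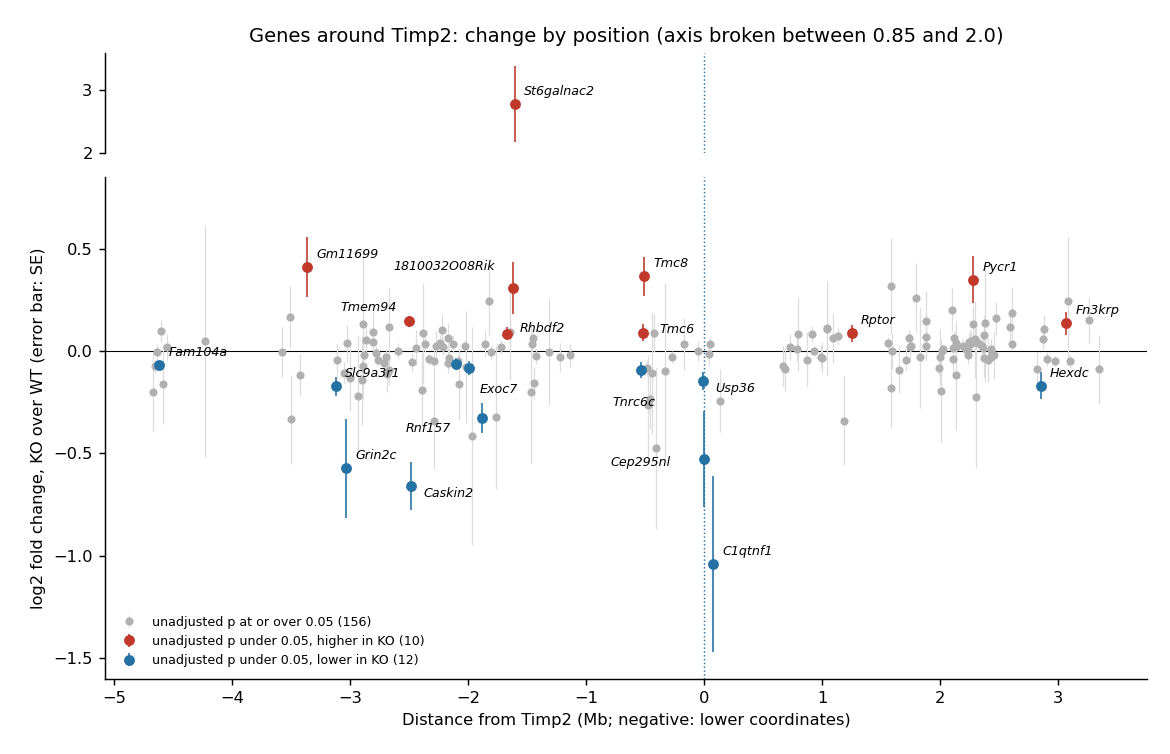
Log2 fold change, KO over WT, of the 178 tested genes (vertical axis, broken between 0.85 and 2.0, with the standard error) against the distance of each gene from Timp2 in Mb. Red points are the 10 higher and blue points the 12 lower genes at an unadjusted p under 0.05; St6galnac2 stands alone at 2.79, and most other genes lie close to 0.

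The typical gene of the window was neither higher nor lower in KO. The median log2 fold change of the 178 genes was -0.00082, against 0.0016 over all tested genes, and 88 genes were higher and 90 lower. The size of the differences was larger by a small margin, which was not tested. The median absolute log2 fold change was 0.0669 in the window, against 0.0541 over all tested genes and 0.0495 over the 1090 other tested genes of chromosome 11. The quartiles of the genes of the window lay at -0.080 and 0.059 on the log2 scale, and 61 of 178 (34.3%) differed by more than 0.1 in either direction, against 31.6% of all tested genes.

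Caskin2, an ankyrin-repeat scaffold protein related to a binding partner of the synaptic protein CASK, had the smallest p of the window. It lies 2.49 Mb from Timp2 at 115799183 to 115813639, on the reverse strand. Its level lay between 4.00 and 6.88 CPM in KO, with a median of 5.38, and between 7.42 and 9.71 CPM in WT, with a median of 8.92. All 7 KO libraries stood under the lowest WT library. The means were 5.48 ± 1.03 and 8.67 ± 0.963 (SD, n = 7 per genotype), and the log2 fold change was -0.66 ± 0.116 (SE; edgeR, unadjusted p = 4.34e-05, adjusted p = 0.170). The exact permutation test gave p = 0.000583, the smallest that the 3432 splits of 14 libraries into 7 and 7 can give. Under the alternatives its log2 fold change stayed between -0.73 and -0.59.

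Tmem94, a membrane protein of the endoplasmic reticulum, meets Caskin2 end to end, from 115765433 to 115799366 on the forward strand, and the 2 genes share 184 exonic bases. Here the direction was opposite. Tmem94 lay between 62.3 and 69.3 CPM in KO, with a median of 65.6, and between 57.7 and 63.3 CPM in WT, with a median of 58.9. Of the KO libraries, 6 were above every WT library. This gave a log2 fold change of 0.14 ± 0.0279 (SE; edgeR, unadjusted p = 0.000115, adjusted p = 0.257). The strand setting of the counting is not given in the sources used here, so reads in the shared bases cannot be assigned to one of the 2 genes with certainty.

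Rnf157, an E3 ubiquitin ligase, lies 1.89 Mb from Timp2 at 116336353 to 116413032. It was between 15.03 and 21.1 CPM in KO, with a median of 19.6, and between 20.6 and 25.5 CPM in WT, with a median of 22.4. Of the KO libraries, 6 were below every WT library. The log2 fold change was -0.33 ± 0.0735 (SE; edgeR, unadjusted p = 0.000507, adjusted p = 0.613).

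Slc9a3r1 encodes NHERF1, a scaffold that ties membrane proteins to the cytoskeleton through ezrin, and lies 3.12 Mb from Timp2 at 115163341 to 115181181. It lay between 80.8 and 104.8 CPM in KO, with a median of 85.7, and between 95.4 and 104.0 CPM in WT, with a median of 98.7. The 7 WT libraries were close together, while 6 KO libraries were below all of them and KO replicate 4 was above all of them. On the log2 scale the difference was -0.17 ± 0.0479 (SE; edgeR, unadjusted p = 0.00272, adjusted p = 0.943). Without KO replicate 4 it was -0.22, and Slc9a3r1 was then the 1 gene of the window past an adjusted p under 0.05.

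Fam104a, at 113661319 to 113684155, was the other gene without overlap and lay 4.62 Mb from Timp2. Its KO libraries spanned 34.8 to 36.4 CPM, with a median of 35.8, and its WT libraries 36.7 to 38.6 CPM, with a median of 37.6. The groups were separated, but by a small step, with a KO mean at 95.4% of the WT mean. The fitted log2 fold change was -0.07 ± 0.0203 (SE; edgeR, unadjusted p = 0.00471, adjusted p = 0.943; exact permutation test, p = 0.000583). Fam104a shares 1116 exonic bases with Cog1 on the other strand, whose log2 fold change was -0.0051.

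Usp36, a deubiquitinase of the nucleolus, lies just 0.0108 Mb from Timp2 at 118259651 to 118290244. It lay between 29.2 and 34.9 CPM in KO, with a median of 31.2, and between 31.9 and 37.7 CPM in WT, with a median of 35.03. The genotypes overlapped, with 4 KO libraries below every WT library. KO over WT, the log2 fold change was -0.15 ± 0.0460 (SE; edgeR, unadjusted p = 0.00646, adjusted p = 0.943).

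**Figure D2:**
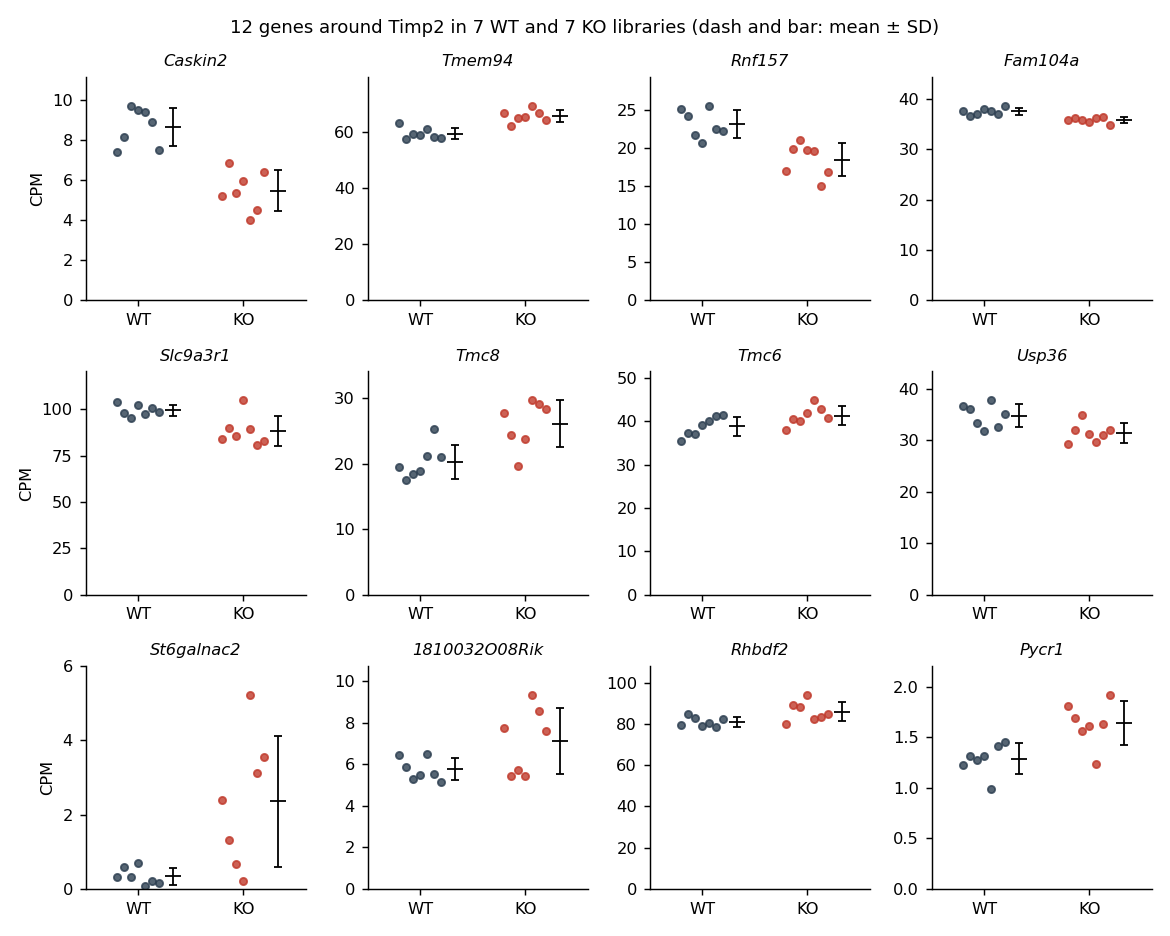
Expression in CPM (vertical axes, each from 0) of 12 genes of the window in the 7 WT and the 7 KO libraries, 1 point per library, with the mean and SD beside them. Caskin2 and Fam104a show no overlap between the genotypes, the KO libraries of St6galnac2 spread from 0.214 to 5.23 CPM, and KO replicate 4 is the highest point of Slc9a3r1.

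The DNA just upstream of these genes is shown for Tmem94, Rnf157, Slc9a3r1 and Usp36, which are 4 of the 8 genes with the smallest p and have the same start in RefSeq and in the GENCODE annotation. The RefSeq table (GRCm38.p6) held an upstream sequence for 132 of the 178 genes. Each line gives the 250 bases before the start of the gene, 5′ to 3′ on the gene's own strand, with every GC box core (GGGCGG) and CCAAT box (CCAAT) on either strand in capitals. The GC box is known as a site for SP1 factors and the CCAAT box for NF-Y.
Tmem94, chr11:115765183-115765432, forward strand: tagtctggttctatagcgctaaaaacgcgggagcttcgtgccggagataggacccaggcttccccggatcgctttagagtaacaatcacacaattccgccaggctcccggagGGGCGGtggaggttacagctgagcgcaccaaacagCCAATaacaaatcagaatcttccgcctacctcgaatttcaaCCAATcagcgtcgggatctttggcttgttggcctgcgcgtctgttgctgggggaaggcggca
Rnf157, chr11:116413033-116413282, reverse strand: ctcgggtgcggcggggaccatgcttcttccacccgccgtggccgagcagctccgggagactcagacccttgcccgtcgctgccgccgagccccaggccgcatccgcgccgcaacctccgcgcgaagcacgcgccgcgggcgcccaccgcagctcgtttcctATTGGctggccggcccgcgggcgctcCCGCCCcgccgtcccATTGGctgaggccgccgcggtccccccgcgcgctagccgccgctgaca
Slc9a3r1, chr11:115163091-115163340, forward strand: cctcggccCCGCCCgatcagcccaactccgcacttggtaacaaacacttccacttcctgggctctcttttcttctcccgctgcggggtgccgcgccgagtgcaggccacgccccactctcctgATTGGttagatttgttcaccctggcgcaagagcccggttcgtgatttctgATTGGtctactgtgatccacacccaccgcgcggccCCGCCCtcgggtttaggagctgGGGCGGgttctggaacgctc
Usp36, chr11:118290245-118290494, reverse strand: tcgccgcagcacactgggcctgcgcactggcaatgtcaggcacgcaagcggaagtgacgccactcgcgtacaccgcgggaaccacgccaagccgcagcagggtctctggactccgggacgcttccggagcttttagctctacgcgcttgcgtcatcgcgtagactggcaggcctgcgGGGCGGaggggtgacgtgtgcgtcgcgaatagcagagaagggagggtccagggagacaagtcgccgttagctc
The GC box core stood once upstream of Tmem94, Rnf157 and Usp36 and 3 times upstream of Slc9a3r1. The CCAAT box stood 2 times upstream of Tmem94, Rnf157 and Slc9a3r1 and was not in this stretch of Usp36. Over the window, 79 of 132 upstream sequences (59.8%) held the GC box core and 53 (40.2%) the CCAAT box. Among all 11116 tested genes with a sequence these shares were 58.2% and 36.2%. Among the genes of the window at an unadjusted p under 0.05, 10 of 14 held the GC box core and 5 of 14 the CCAAT box. The median number of CG dinucleotides in the 250 bases was 18 in the window and 16 over all tested genes. These counts describe letters, and binding was not measured.

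St6galnac2 had the largest log2 fold change of all 15700 tested genes, and it was carried by an uneven set of KO libraries. It encodes a sialyltransferase that adds sialic acid to O-linked glycans, and lies 1.61 Mb from Timp2 at 116675303 to 116694868. It lay between 0.214 and 5.23 CPM in KO, with a median of 2.40, and between 0.0659 and 0.695 CPM in WT, with a median of 0.318. In KO, 5 libraries were above every WT library, while replicates 3 and 4, at 0.661 and 0.214 CPM, were within the WT range. The means were 2.36 ± 1.77 and 0.340 ± 0.230 CPM (SD, n = 7 per genotype), or 96.9 and 15.1 counts per library. This gave a log2 fold change of 2.79 ± 0.608 (SE; edgeR, unadjusted p = 0.000371, adjusted p = 0.561), and it stayed between 2.46 and 3.05 under the alternatives.

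The noncoding gene 1810032O08Rik overlaps St6galnac2 on the other strand and shares 497 exonic bases with it. Its KO libraries spanned 5.44 to 9.36 CPM, with a median of 7.60, and its WT libraries 5.17 to 6.48 CPM, with a median of 5.55. The 4 KO libraries above every WT library, replicates 1, 5, 6 and 7, were also the 4 KO libraries with the highest St6galnac2. The log2 fold change was 0.31 ± 0.127 (SE; edgeR, unadjusted p = 0.0287). The shared bases and the unknown strand setting leave both values uncertain.

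The list for endolysosomal and glycan enzymes, set broadly by known roles, held 12 genes, among them Lgals3bp, a secreted glycoprotein. Of the 12, 7 were higher and 5 lower in KO, and the median of their log2 fold changes was 0.02. At an unadjusted p under 0.05 there were 2 higher genes and 1 lower (25%), against 12.4% over the window and 3.37% of all tested genes. Besides St6galnac2 these were Fn3krp, a kinase that acts on glycated proteins, and Hexdc, a hexosaminidase. Fn3krp lay between 7.55 and 8.95 CPM in KO, with a median of 8.24, and between 6.96 and 8.08 CPM in WT, with a median of 7.55. Its groups overlapped, with 5 KO libraries above every WT library, and its log2 fold change was 0.14 ± 0.0555 (SE; edgeR, unadjusted p = 0.0279). Hexdc lay between 5.58 and 6.80 CPM in KO, with a median of 6.38, and between 6.31 and 7.57 CPM in WT, with a median of 7.14. All 7 KO libraries of Hexdc were below the WT median, though the ranges overlapped, and its log2 fold change was -0.17 ± 0.0663 (SE; edgeR, unadjusted p = 0.0217).

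The immune and signalling list held 16 genes of the window, 9 higher and 7 lower (median 0.02 on the log2 scale). Of these, 6 (37.5%) were at an unadjusted p under 0.05, against 12.4% over the window and 3.37% of all tested genes. The list is small and was written with earlier results of these data known, and its share was not tested. Tmc6 and Tmc8 belong to the transmembrane channel-like family and are also called EVER1 and EVER2. They stand head to head, with their 5′ ends overlapping and 40 exonic bases in common, Tmc6 at 117765988 to 117782198 and Tmc8 at 117782076 to 117793110. Tmc8 lay between 19.7 and 29.7 CPM in KO, with a median of 27.8, and between 17.5 and 25.3 CPM in WT, with a median of 19.4. All 7 KO libraries were above the WT median, and 4 were above every WT library. Its log2 fold change was 0.36 ± 0.0954 (SE; edgeR, unadjusted p = 0.00169, adjusted p = 0.943). With DESeq2 and the replicate block it passed, with an adjusted p of 0.000442. This was the 1 of 21 alternative settings in which Tmc8 passed. Its adjusted p was 0.182 with DESeq2 alone and 0.220 with the replicate block in edgeR. Tmc6 lay between 37.98 and 44.8 CPM in KO, with a median of 40.8, and between 35.5 and 41.4 CPM in WT, with a median of 39.2. It overlapped more, with 3 KO libraries above every WT library and a log2 fold change of 0.09 ± 0.0414 (SE; edgeR, unadjusted p = 0.0486).

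Rhbdf2 encodes iRhom2, which the protease ADAM17 needs to mature and release TNF in macrophages. It lay between 79.9 and 94.2 CPM in KO, with a median of 84.8, and between 78.4 and 84.7 CPM in WT, with a median of 80.6. Its KO libraries reached higher, with 4 above every WT library, and its log2 fold change was 0.09 ± 0.0340 (SE; edgeR, unadjusted p = 0.0234). Rptor, the Raptor subunit of the growth regulator mTORC1, lay between 118.9 and 144 CPM in KO, with a median of 138, and between 119.0 and 134 CPM in WT, with a median of 127. Here 4 KO libraries were above every WT library and 1, replicate 1, was below every WT library. The log2 fold change of Rptor was 0.09 ± 0.0402 (SE; edgeR, unadjusted p = 0.0488).

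C1qtnf1, a secreted protein of the C1q and TNF related family, lies 0.0725 Mb from Timp2 at 118428203 to 118449963 and had the largest log2 decrease of the 22 genes. It was low, between 0.140 and 1.23 CPM in KO, with a median of 0.401, and between 0.3603 and 2.23 CPM in WT, with a median of 0.823. The highest WT library, replicate 4, was also the library with the highest sum of astrocyte markers. On the log2 scale the difference was -1.04 ± 0.431 (SE; edgeR, unadjusted p = 0.0291). With the summed level of astrocyte markers as a covariate it was -0.57 (edgeR, unadjusted p = 0.0726).

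Of the 3 nearest genes on each side of Timp2, Usp36 and C1qtnf1 were at an unadjusted p under 0.05 and the other 4 were not. On the lower-coordinate side the ARF exchange factor Cyth1 had a log2 fold change of 0.00041 ± 0.0478 (SE), a value whose sign changed with the scaling, and the axonemal dynein heavy chain gene Dnah17 had 0.03 ± 0.127 (SE). Cyth1 lay between 60.3 and 69.8 CPM in KO and between 57.7 and 72.2 CPM in WT, so the genotypes overlapped almost fully. On the other side, Lgals3bp, a secreted glycoprotein that binds galectin-3, lay between 805 and 1067 CPM in KO and between 896 and 1110 CPM in WT. Its log2 fold change was -0.01 ± 0.0607 (SE). Cant1, a calcium-activated nucleotidase, had a log2 fold change of 0.04 ± 0.0363 (SE). For Cyth1, Lgals3bp and Cant1 the difference was smaller than the SE or close to it.

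Cep295nl lies inside the span of Timp2, on the same strand and with no exonic base in common, at 118332360 to 118342500. It was between 0.331 and 0.638 CPM in KO, with a median of 0.475, and between 0.371 and 1.05 CPM in WT, with a median of 0.657. All 7 KO libraries were below the WT median, but the ranges overlapped and the mean was just 24.2 counts per library. Its log2 fold change was -0.53 ± 0.233 (SE; edgeR, unadjusted p = 0.0390). Timp2 was lower in the same libraries, and whether unspliced Timp2 reads were counted on Cep295nl was not tested.

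Among the 21 genes for mitochondria and metabolism, 11 were higher and 10 lower (median 0.02 on the log2 scale). Of these, 2 (9.52%) were at an unadjusted p under 0.05, against 12.4% over the window and 3.37% of all tested genes. Pycr1, an enzyme of proline synthesis in mitochondria, lay between 1.23 and 1.92 CPM in KO, with a median of 1.63, and between 0.988 and 1.45 CPM in WT, with a median of 1.31. Of its KO libraries 6 were above every WT library, and 1 was within the WT range. The log2 fold change of Pycr1 was 0.35 ± 0.116 (SE; edgeR, unadjusted p = 0.00884).

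The membrane traffic list held 17 genes, 10 higher and 7 lower, and its median log2 fold change of 0.01 turned to -0.0021 with upper-quartile scaling. The list was drawn broadly and also holds Usp36, described above as a deubiquitinase of the nucleolus. At an unadjusted p under 0.05 were 2 of the 17 (11.8%), against 12.4% over the window and 3.37% of all tested genes. Besides Usp36, this was Exoc7, a subunit of the exocyst that tethers vesicles to the plasma membrane. Exoc7 lay between 48.2 and 56.2 CPM in KO, with a median of 52.0, and between 52.3 and 58.7 CPM in WT, with a median of 54.8. Of its KO libraries 4 were below every WT library, and its log2 fold change was -0.08 ± 0.0357 (SE; edgeR, unadjusted p = 0.0344).

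The RNA processing list had 2 higher and 8 lower genes, with its median at -0.05 on the log2 scale, against 0.0016 over all tested genes. Tnrc6c, a GW182 protein of microRNA silencing, was its 1 gene of 10 (10%) at an unadjusted p under 0.05, against 12.4% over the window. It lay between 53.4 and 61.1 CPM in KO, with a median of 56.1, and between 55.5 and 63.6 CPM in WT, with a median of 60.0. The ranges overlapped, and the log2 fold change was -0.09 ± 0.0385 (SE; edgeR, unadjusted p = 0.0317).

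The neural and glial list had 2 higher and 12 lower genes and the lowest median of the 9 lists, -0.17. It was drawn broadly, and its lower genes include Tmem104 and Ttyh2, at mean levels of 224 and 108 CPM. Its 2 genes of 14 (14.3%) at an unadjusted p under 0.05, against 12.4% over the window, were Caskin2 and Grin2c, the GluN2C subunit of NMDA receptors. Grin2c lay between 0.429 and 1.43 CPM in KO, with a median of 0.886, and between 1.03 and 1.85 CPM in WT, with a median of 1.36. The ranges overlapped, with 4 KO libraries below every WT library, and the log2 fold change was -0.57 ± 0.243 (SE; edgeR, unadjusted p = 0.0323). These genes are mostly low in the cultures, and the astrocyte markers, at a median sum of 47.7 CPM in KO and 86.5 CPM in WT, were also lower in KO by median. The neuronal markers had medians of 31.2 CPM in KO and 40.8 CPM in WT, with 7 of 8 lower in KO by fold change. The oligodendrocyte-lineage markers had medians of 152 and 162 CPM, with 6 of 7 tested lower. The part of the neuronal and oligodendrocyte-lineage markers in the result was not tested. With the astrocyte marker level as a covariate the median of the list was -0.0509, while Caskin2 was at -0.59 and Grin2c at -0.57. In bulk cultures, fewer cells of a type and less RNA per cell cannot be told apart.

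No gene of the chromatin and transcription list (12 genes), the cell division list (7) or the cytoskeleton and adhesion list (11) was at an unadjusted p under 0.05. Their medians were 0.02, -0.04 and -0.0012 on the log2 scale. The thymidine kinase gene Tk1, a gene of DNA synthesis, was spread widely in KO, between 5.10 and 18.0 CPM in KO and between 10.4 and 16.3 CPM in WT. The KO range held the whole WT range, and its log2 fold change was -0.26 ± 0.247 (SE). Sumo2, a small modifier of nuclear proteins, had a log2 fold change of -0.04 ± 0.0288 (SE), and Anapc11, a subunit of the anaphase-promoting complex, 0.05 ± 0.0393 (SE).

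Outside the 9 lists stood 58 genes, of which 3 were higher and 3 lower at an unadjusted p under 0.05 (10.3%), against 12.4% over the window. All of the 6 have been given above except Gm11699. It is a processed pseudogene of 401 bases that lies within the span of Cd300lb. Gm11699 lay between 2.10 and 4.14 CPM in KO, with a median of 2.65, and between 1.69 and 2.38 CPM in WT, with a median of 1.99. All 7 KO libraries were above the WT median, and the log2 fold change was 0.41 ± 0.146 (SE; edgeR, unadjusted p = 0.0137). Reads of a processed pseudogene cannot be told apart with certainty from those of its parent gene.

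**Figure D3:**
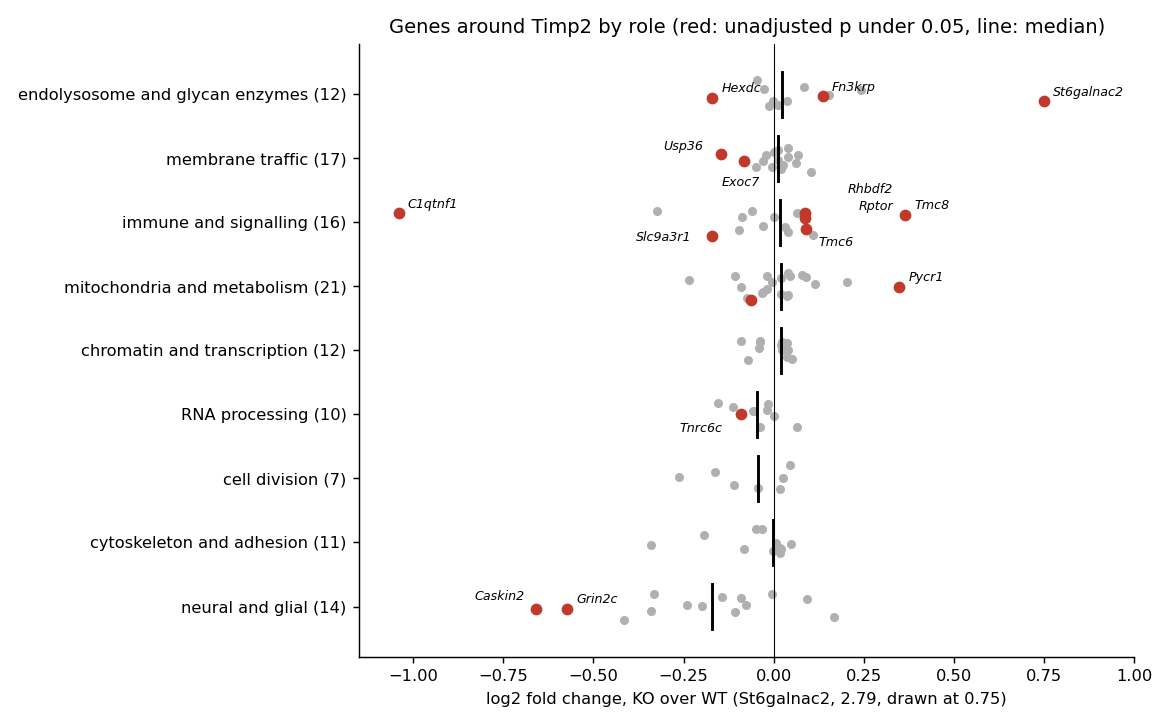
Log2 fold change, KO over WT (horizontal axis), of the genes of the window in 9 role lists, with the number of genes in brackets, 1 point per gene, red at an unadjusted p under 0.05 and a black line at each median. The neural and glial list has its median at -0.17 and the other lists lie close to 0; St6galnac2, at 2.79, is drawn at 0.75.

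By position, the genes at an unadjusted p under 0.05 were spread over the window and stood more often on the side of lower coordinates. On that side there were 16 of 93 genes (17.2%), of which 7 were higher and 9 lower. On the other side there were 5 of 84 (5.95%), 3 higher and 2 lower, and the last one, Cep295nl, overlaps Timp2. Over all tested genes the share was 3.37%, so the lower-coordinate side was above it by a wider margin. Within 0.5 Mb of Timp2 the count was 3 of 16 genes, all 3 lower in KO, and between 0.5 and 1 Mb it was 3 of 13. It was 6 of 42 between 1 and 2 Mb and 5 of 83 between 2 and 3 Mb. Farther out there were few tested genes, with 4 of 16 between 3 and 4 Mb and 1 of 8 between 4 and 5 Mb. The last tested gene on the higher-coordinate side, Metrnl, lay 3.35 Mb from Timp2, so genes farther than this were all on the other side. The share thus did not fall steadily with distance. Neighbouring genes can share regulation and reads, so no test was made of these counts.

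The direction also differed by side. On the lower-coordinate side 37 of 93 genes (39.8%) were higher in KO and the median log2 fold change was -0.03, while on the other side 51 of 84 (60.7%) were higher and the median was 0.02. Within 0.5 Mb of Timp2, 4 of 16 genes were higher, and the median log2 fold change was -0.10. These are descriptions of the 178 tested genes, with the genes set aside left out, and upper-quartile scaling shifted their median to -0.0147.

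Set against the rest of the genome, the stretch that holds most of the window stood first. The genome was divided into stretches of 10 Mb, of which 125 held at least 50 tested genes. Between 110 and 120 Mb of chromosome 11, 19 of 126 tested genes (15.1%) were at an unadjusted p under 0.05, with the genes set aside left out. The next stretch, on chromosome 6 between 110 and 120 Mb, had 9 of 94 (9.57%), and the median stretch had 2.99%. Of the 1090 other tested genes of chromosome 11, 37 (3.39%) were at this threshold, and on the other chromosomes 3.21%. Of the 13 genes whose groups did not overlap, 6 lay in the window. These were the targeted gene Timp2, Engase, Gm11748 and Sept9, all set aside, and Caskin2 and Fam104a, the 2 among the 178 genes.

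**Figure D4:**
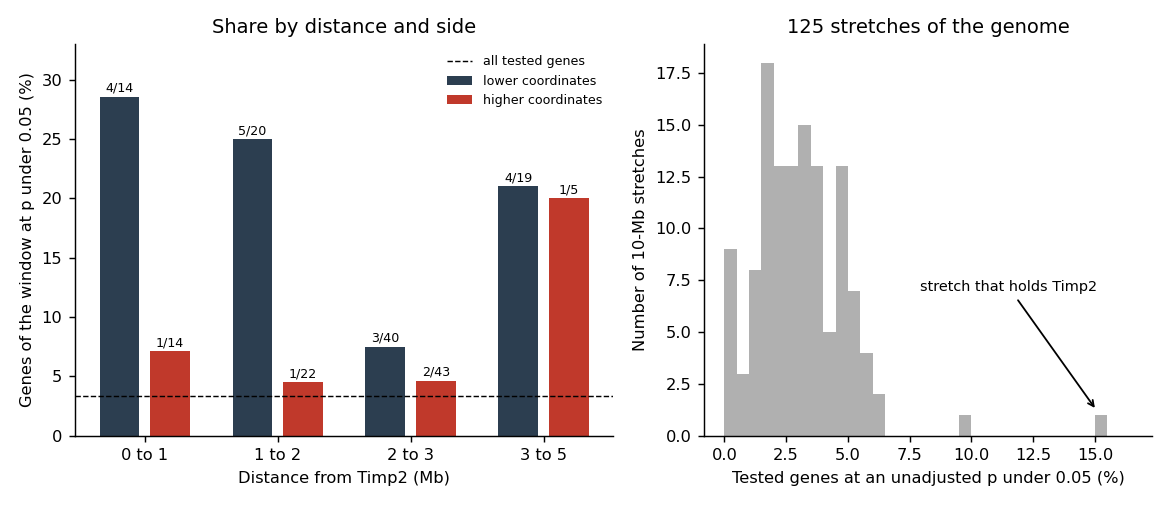
Left, share of the tested genes of the window, without the genes set aside, at an unadjusted p under 0.05 (percent) by distance from Timp2 and by side. The counts stand above the bars, and the dashed line is the share over all tested genes (3.37%). Right, the number of 10-Mb stretches of the genome by the same share; the stretch that holds Timp2 is at 15.1%, and the other 124 are below 10%.

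By expression level, the genes at an unadjusted p under 0.05 were found at every level. When all tested genes were divided into 3 classes of the same size by mean log2 CPM, the window held 46 genes in the low class, 66 in the middle and 66 in the high class. The counts were 6 of 46 (13.0%), 7 of 66 (10.6%) and 9 of 66 (13.6%), against 3.52%, 2.90% and 3.69% of all tested genes in the same classes. The size of the differences fell with expression, the median absolute log2 fold change being 0.188 in the low, 0.0728 in the middle and 0.0381 in the high class. Over all tested genes these medians were 0.166, 0.0466 and 0.0294.

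The 5 most expressed genes of the window were Arhgdia, Actg1, Lgals3bp, Rnf213 and H3f3b. Per kilobase of exon, Arhgdia, a regulator of small GTPases, had the highest level at 487 CPM per kb, and Actg1, cytoplasmic gamma actin, had 404 CPM per kb, against a median of 5.63 CPM per kb over the 178 genes. Arhgdia lay between 1069 and 1127 CPM in KO and between 1066 and 1126 CPM in WT. These ranges were almost the same, and the log2 fold change was 0.0064 ± 0.0222 (SE). Actg1 lay between 976 and 1120 CPM in KO and between 1025 and 1193 CPM in WT, with a log2 fold change of -0.08 ± 0.0409 (SE; edgeR, unadjusted p = 0.0617). H3f3b, a gene of the replication-independent histone H3.3, had a log2 fold change of 0.02 ± 0.0737 (SE), and Rnf213, a large ubiquitin ligase induced by interferon, 0.11 ± 0.116 (SE). For both, the difference was within or close to 1 SE.

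Neighbouring genes had the same sign about as often as elsewhere in the genome. Of the 177 pairs of adjacent tested genes in the window, 97 (54.8%, 95% Wilson interval 47.4 to 62.0, which treats pairs as independent) had the same sign, against 54.0% of 15082 pairs on all autosomes. There were 25 pairs that start within 1000 bases of each other and point apart, and 16 of them had the same sign. Tmc6 and Tmc8 were the 1 pair with both genes at an unadjusted p under 0.05. Of the 54 genes that share exonic bases with another tested gene, 9 (16.7%) were at this threshold, and of the 124 that share none, 13 (10.5%).

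Protein-coding genes were 157 of the 178, with 20 (12.7%) at an unadjusted p under 0.05, against 3.36% of all tested protein-coding genes. Of the 21 others, 14 (66.7%) were higher and 7 lower. This was near the 61.2% higher among all 2279 tested genes that are not protein coding. At the threshold were 2 of the 21 (9.52%), Gm11699 and 1810032O08Rik, against 3.42% of those 2279. By strand there were 10 of 81 genes on the forward strand and 12 of 97 on the reverse strand.

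At the lower edge of the window, the outermost tested genes were Slc39a11 and Sstr2, with log2 fold changes of -0.07 ± 0.0344 and -0.20 ± 0.190 (SE). Slc39a11 starts at 113244853, so its span crosses the edge at 113301069. Just outside stood 2610035D17Rik at -0.16 ± 0.129 and Sox9 at -0.46 ± 0.413 (SE). On the higher-coordinate side the last tested gene ended at 121716306 and the last listed gene at 121970685. No listed gene lay between there and the stated window end of 123355740, so the 2 sides did not hold genes over the same length. The filter on low counts kept 15 genes that were under its cut in some library, and each had at least 3 KO and at least 4 WT libraries at the cut. Of these 15, 2 were among the 22, St6galnac2 and C1qtnf1.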

How the data were processed

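The authors deposited raw, unscaled counts per Ensembl gene for each library. Per the submitters' processing notes, the tools were Trimmomatic 0.36, STAR 2.5.2b and featureCounts of Subread 1.5.2, with GRCm38. The strand setting, the annotation release and the batch of each library are not given in the sources used here. Positions came from GENCODE (GRCm38), which matched 49056 of 49315 genes. Depth was between 38875344 and 48070236 counts per library.

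Low genes were removed by filterByExpr (at least 10 counts, at least 15 in total), and the rest scaled with TMM and tested with edgeR 4.0.16 (R 4.3.3; quasi-likelihood, KO over WT, two-sided, Benjamini-Hochberg over all 15700 genes). CPM were computed from the TMM-scaled library sizes. Single values were tested by exact permutation over 3432 splits. The scripts were tested on simulated data. Alternatives were DESeq2 1.42.0, other scalings, no filter, the replicate block, an astrocyte covariate, other windows and leaving out each library. The closest pair of libraries differed by more than sampling noise (chi-square per degree of freedom 6.36).

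Named genes were the 10 genes of smallest p in each direction, the 3 nearest Timp2 on each side and any inside it, the 5 most expressed, the 2 smallest p per role list, and those without overlap or sharing bases with them. The values of 1 such gene are not reported here. The genes, lists and rules were chosen with earlier results of these data known. The p-values measure the spread between pools of pups.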

Additional observations from a re-analysis of the deposited data

Results flagged for a closer look

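Among the genes named above, 8 of 72 groups of 7 libraries held 1 library whose gap to the nearest of the others was large for the range of its group, and chance gives this in about 1 in 20 groups. In KO these were Gm11699 in replicate 7, at 4.14 CPM against 2.10 to 2.92 in the others, Slc9a3r1 in replicate 4, at 104.8 CPM against 80.8 to 90.2, and C1qtnf1 in replicate 1, at 1.23 CPM against 0.140 to 0.606. They were also Cyth1 in KO replicate 5, at 69.8 CPM against 60.3 to 63.2, and Sap30bp, a transcription cofactor, in KO replicate 4, at 43.9 CPM against 38.3 to 40.6. In WT they were Grin2c in replicate 2, at 1.85 CPM against 1.03 to 1.38, Lgals3bp in replicate 5, at 1110 CPM against 896 to 984, and Mettl23 in replicate 4, at 9.05 CPM against 10.0 to 10.6. KO replicate 4 accounts for 2 of the 8.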

How the results depend on the processing

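The 22 genes at an unadjusted p under 0.05 became between 18 and 25 when 1 library was left out, while the share of all tested genes ran from 2.38% to 6.31% (6.31% without KO replicate 1, 6.28% without WT replicate 5), and between 21 and 29 under the other scalings, filters, tools and covariates. Windows of 1 Mb and 2 Mb held 6 of 29 genes (20.7%) and 12 of 71 (16.9%). A window of 20 Mb held 30 of 379 (7.92%), against 3.37% of all tested genes. Genes past an adjusted p under 0.05 numbered 4 with DESeq2 and 4 with DESeq2 and the replicate block (Tmc8 in place of Rnf157, whose adjusted p was 0.0507), and between 0 and 1 with 1 library left out. For these fits the numbers over all tested genes past this threshold are not given here. Correlations of same-numbered libraries ran from -0.196 to 0.743, with 3 of 7 over 0.1, so the numbers were not taken as pairs; the replicate block in edgeR gave 24 genes at an unadjusted p under 0.05, against 5.87% of all tested genes, and 0 past the adjusted threshold. Signs turned for genes near 0. The log2 fold change of Cyth1 was -0.0023 with DESeq2 size factors, -0.012 with upper-quartile factors, -0.0047 without a filter, -0.0024 with DESeq2, -0.000093 with DESeq2 and the replicate block and -0.048 with the astrocyte covariate. With that covariate Cant1 was -0.0017 and Arhgdia -0.0035, and Arhgdia was -0.0071 with upper-quartile factors. With 1 library left out, Cyth1 ran from -0.026 to 0.036, Dnah17 from -0.028 to 0.093, Lgals3bp from -0.042 to 0.023, Arhgdia from -0.00047 to 0.015 and H3f3b from -0.043 to 0.057. The cause was not tested. Low counts limit Cep295nl, C1qtnf1, Grin2c and St6galnac2.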
